A study of Mus musculus with 2 samples.

Results

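The heat shock chaperones of the cytosol and the mitochondrion were compared between 2 mouse osteosarcoma cell lines. Their members were 47 listed chaperones, cochaperones and heat shock factors, found on the array as every probe set whose only gene symbol was a listed name, current or former. This gave 126 probe sets of 45 genes, out of 34958 probe sets of 18193 genes with a single symbol. Dunn is the parental line, labelled non-metastatic, and LM8 is its subline, labelled highly metastatic. Neither was treated, and the culture medium, with 10% serum and a 1% supplement of non-essential amino acids, was the same. For each line 10 µg of total RNA was labelled for 1 Affymetrix mouse array. Each line is a single cultured population, so the comparison is of these lines and does not extend to other tumours. With 1 array per line there is no replicate check, no test of significance and no p-value. The 45101 probe sets of an array are sets of short oligonucleotides that each report 1 transcript or a few related ones, and their values are linear MAS5 signals with no stated unit.

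Heat shock proteins bind unfolded or half-made polypeptides and help them to fold, travel or be degraded. The Hsp70 proteins work with J-domain partners of the Hsp40 family, which deliver clients and speed ATP hydrolysis, and with exchange factors of the Hsp110 and BAG families, which release the nucleotide. Hsp90 finishes the folding of kinases and steroid receptors with its own cochaperones. The ring-shaped TRiC complex folds actin and tubulin in the cytosol, and Hsp60 with its lid Hsp10 folds proteins inside mitochondria. Heat shock factors bind inverted repeats of a short motif, the heat shock element, in front of the inducible genes of this system.

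A probe set was taken as measured if it exceeded the median signal of an array, called the floor here, which was 21.06 in Dunn and 18.96 in LM8. Signals under a floor were set to it, so a fold that involves one is a lower bound. A gene took its brightest measured probe set, and differences are log2 of the LM8 over the Dunn signal, called the log2 ratio below. Of 18193 genes 11830 were measured, with a median log2 ratio of -0.08. The spread at hand was the SD between the measured probe sets of a gene, 0.30 in the median over 5521 genes, which reflects probes and isoforms and not replicate error.

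The lines are labelled as osteosarcoma cells, and the osteoblast-lineage markers measured lay well above the floors in both. Col1a1, a chain of bone collagen, gave 2399 in Dunn and 3537 in LM8. Alpl, the bone alkaline phosphatase, gave 1266 and 1739, and Sp7, an osteoblast transcription factor, 687 and 743. Col1a2, the second collagen chain, gave 8785 and 7350 on its brightest probe set, but its probe sets ran from -0.26 to 1.73 in log2 ratio. Ibsp, a bone matrix sialoprotein, was 2.48-fold lower in LM8 at 239 and 96.6, and the hormone receptor Pth1r 2.26-fold lower at 1115 and 492. The 6 measured osteoblast markers summed to 14490 in Dunn and 13960 in LM8, and the brightest probe set of Col1a2 was the largest part of each sum. Of 7 macrophage markers 6 were measured, with sums of 262 in Dunn and 103.9 in LM8 over these 6. Cd68, Adgre1, Lyz2 and Fcgr1 were under the LM8 floor and counted as measured through Dunn alone, which fixed their direction. Cd14 gave 64.0 and 32.9. Csf1r gave 75.1 and 26.8, but the probe sets of Csf1r ran from -1.485 to 0.478 in log2 ratio. The leukocyte gene Ptprc was below both floors. For endothelial markers 2 of 5 were measured and summed to 180.1 and 95.3, and for epithelial markers 2 of 5, which summed to 66.0 and 51.6. The part of these sums in the chaperone differences was not tested.

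Of the 47 members, 43 were measured. Hsf1 and Hsp90ab1 were not analysed here, and Hsf2 and Hspa12a lay below both floors. Only 1 member was at least 2-fold higher in LM8, Hspa4l, where 6.51% of all measured genes were, and 1 was at least 2-fold lower, Hspa1b, where 8.84% of all genes were. The remaining 41 lay between these bounds. Each single member is 2.33% of those measured, under the share of all genes in both directions.

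At 1.5-fold the members divided into 6 higher, 6 lower and 31 between. The higher ones were Hspa4l, Hspa14, Bag3, Hspa13, Dnaja1 and Cct3, and the lower ones Hspa1b, Hspa1a, Cryab, Dnajb2, Hspb8 and Bag2. On its brightest probe set Hspa4l counted as measured through LM8 alone, and Hspa1a and Hspb8 through Dunn alone, which largely fixed their direction. Either count is 14.0% of the measured members, against 15.3% of all genes at least 1.5-fold higher and 20.3% at least 1.5-fold lower. The median log2 ratio of the members was 0.08, which is 0.16 above that of all genes, and 24 of 43 lay above the all-gene median. The members lay on both sides of 0, 23 above and 20 below, and a few lay far out on either side.

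**Figure D1:**
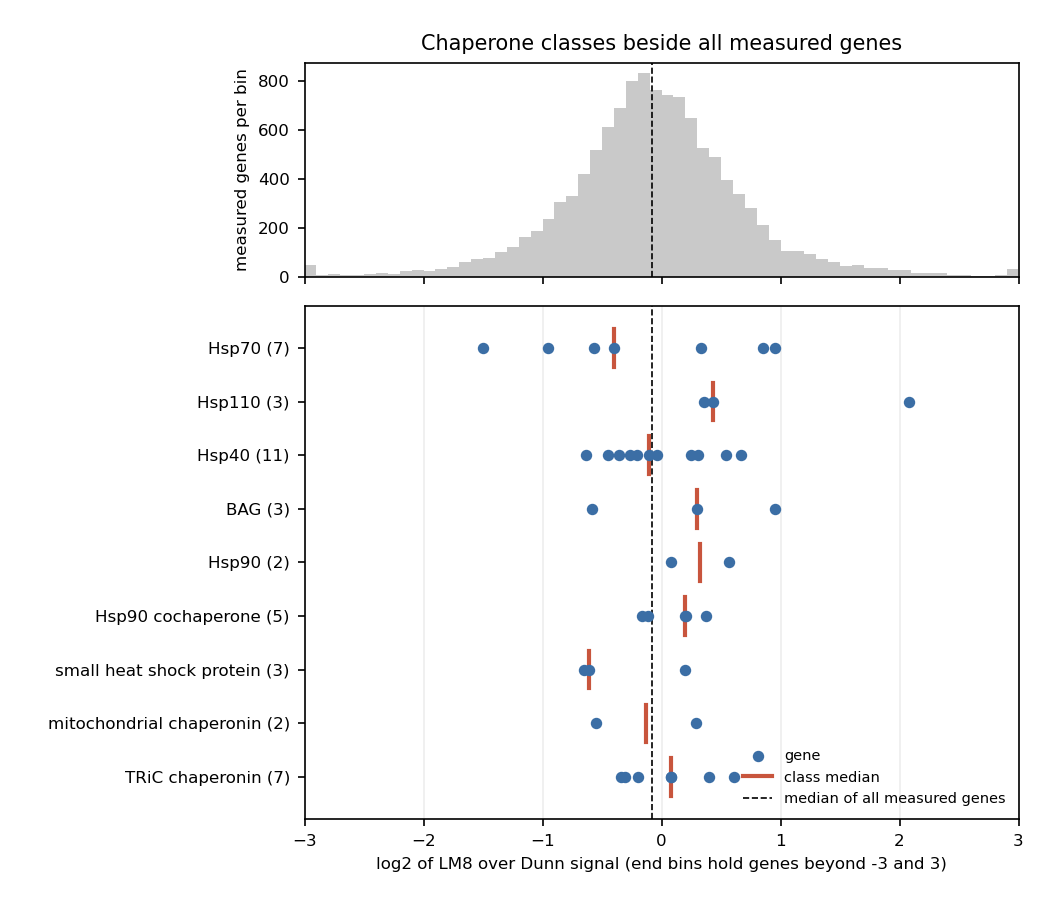
The upper panel is a histogram of the log2 ratio of LM8 over Dunn for all 11830 measured genes, and the lower panel shows each measured chaperone gene as a point in its class, with a bar at the class median and a dashed line at the all-gene median of -0.08. The Hsp110 points all lie to the right of that line with a class median of 0.43, 2 of the 3 small heat shock proteins lie to its left, and the Hsp70 points spread from -1.50 to 0.95.

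The factors that drive heat shock transcription gave no usable level. Hsf2, a heat shock factor active in development and under proteotoxic stress, had 2 probe sets, with highest signals of 7.15 in Dunn and 11.1 in LM8. Both are under the floors, so no fold was computed.

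The Hsp70 family held the sharpest contrast among the members, with the stress-inducible Hspa1b lower in LM8 and 2 specialised relatives higher. Hspa1b, which encodes the heat-inducible cytosolic Hsp70, gave 558 in Dunn and 198 in LM8 on its brightest probe set, a 2.82-fold difference with a log2 ratio of -1.50. Its other probe sets gave 458 and 139.7, and 281 and 123.6, with log2 ratios of -1.71 and -1.19. All 3 probe sets were more than 2-fold lower in LM8. Hspa1a, the adjacent copy that encodes a near-identical protein, had 1 probe set, at 36.7 in Dunn and 2.33 in LM8. LM8 was under its floor there, so the gene was at least 1.93-fold lower. Hspa1a counted as measured through Dunn alone, which fixed its direction.

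The promoters of this pair are shown because the copies share them almost letter for letter. Both sequences are the 250 bases before the RefSeq transcript start in GRCm38.p6, on the minus strand, for Hspa1b at chr17:34959239-34959488 and for Hspa1a at chr17:34972157-34972406. Capitals mark a heat shock element pair, 2 facing units of the motif.
Hspa1b: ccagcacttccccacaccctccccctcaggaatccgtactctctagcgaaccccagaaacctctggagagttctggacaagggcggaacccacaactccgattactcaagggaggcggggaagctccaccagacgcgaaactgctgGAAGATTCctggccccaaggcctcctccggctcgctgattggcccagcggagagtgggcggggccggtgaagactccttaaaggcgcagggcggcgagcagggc
Hspa1a: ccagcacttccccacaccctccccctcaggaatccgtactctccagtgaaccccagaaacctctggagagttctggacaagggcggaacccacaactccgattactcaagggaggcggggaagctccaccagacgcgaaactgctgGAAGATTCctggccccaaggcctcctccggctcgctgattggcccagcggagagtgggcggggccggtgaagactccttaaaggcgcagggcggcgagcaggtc
The stretches matched at 247 of 250 bases, or 98.8%, and each held 1 pair, centred 100 bases before the start (position -100). Probes for 1 copy can also bind the other, 2 of the Hspa1b probe sets are of types that may match several transcripts (suffixes _a_at and _x_at), and the share of each copy in the signal cannot be told apart. The third, without such a suffix, is the one with 281 and 123.6.

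The remaining Hsp70 genes of the cytosol differed less. Hspa8, the constitutive Hsc70 that also uncoats clathrin vesicles, gave 9080 in Dunn and 6893 in LM8, a log2 ratio of -0.40. Its next probe sets had -0.35 and -0.12, while a dim one at 77.1 and 122.8 had 0.67. The bright probe sets of Hspa8 lay on one side and the dim one on the other. Hspa2, an Hsp70 best known from the testis, gave 84.1 and 56.9 with a log2 ratio of -0.56. Hspa12a, a distant Hsp70 relative, did not exceed 14.1 in Dunn or 11.3 in LM8.

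The 2 Hsp70 relatives at least 1.5-fold higher in LM8 work at the ribosome or in the secretory pathway. Hspa14, which pairs with Dnajc2 in the ribosome-associated complex, gave 323 in Dunn and 625 in LM8, 1.93-fold higher, and its second probe set had a log2 ratio of 0.85. Hspa13, a microsomal Hsp70 also called Stch, gave 209 and 378, 1.81-fold higher. The log2 ratios of its other probe sets were 0.87, 1.13 and 1.11, so all 4 of them pointed the same way. Hspa9, the mitochondrial Hsp70 mortalin, gave 2459.5 and 3101, a log2 ratio of 0.33 that is close to the spread between probe sets. Over the 7 measured genes the family median was -0.40. It became -0.0066 after quantile normalization and 0.33 without probe sets of the multi-transcript types, where Hspa8 is read from its dim probe set, so the median says little about a family that splits.

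**Figure D2:**
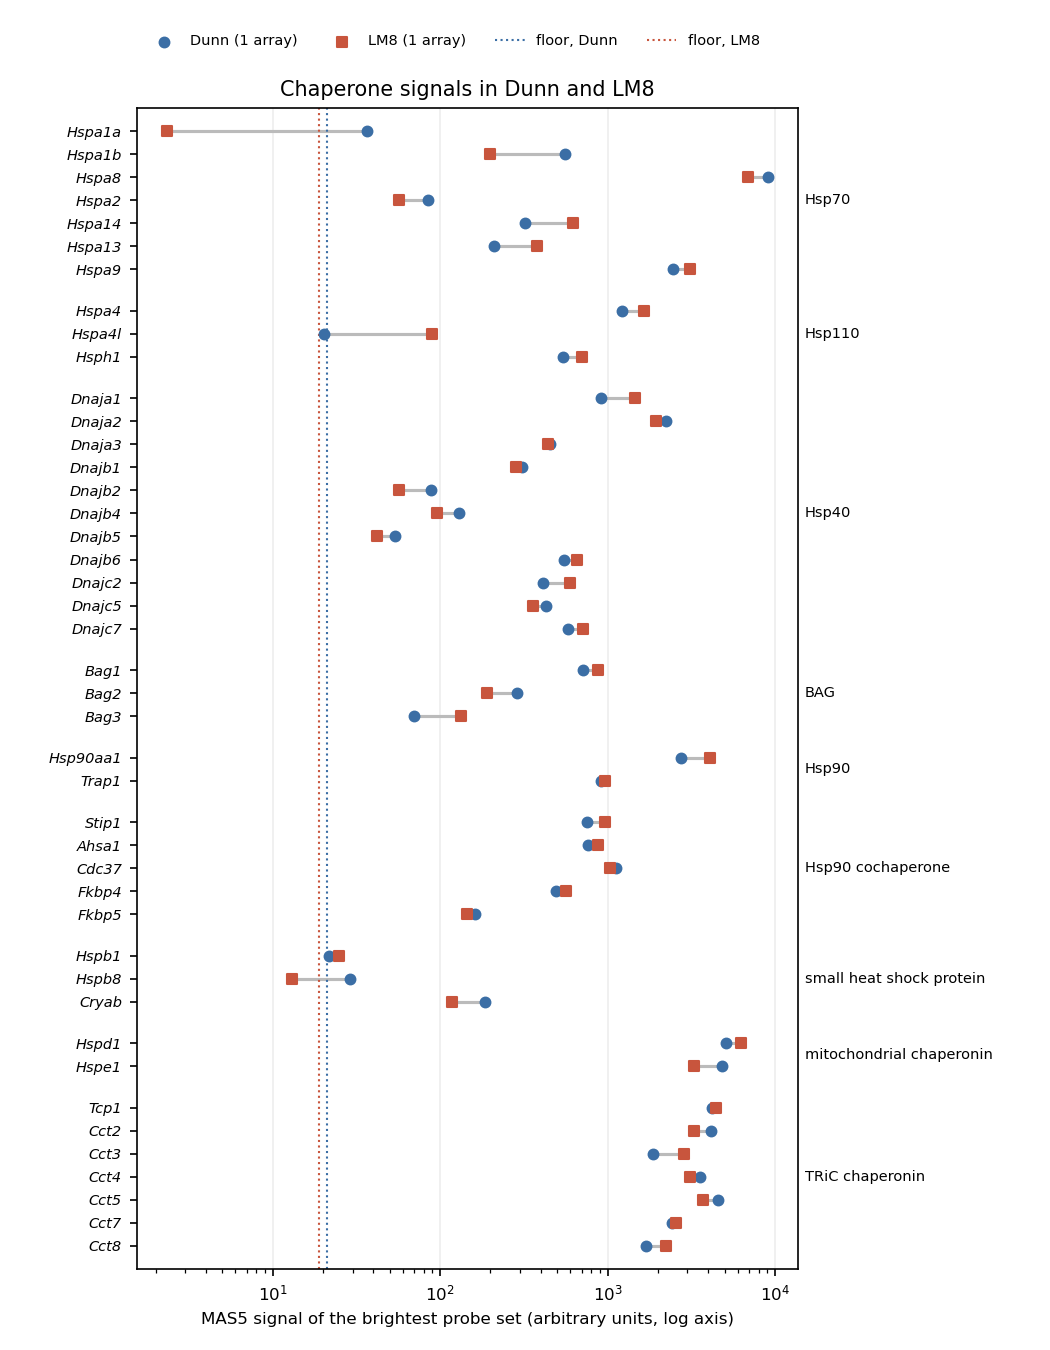
For each measured chaperone, a circle gives the signal on the Dunn array and a square that on the LM8 array, on a log axis, with dotted lines at the array floors. Hspa1a, Hspa1b and Hspa4l show the widest gaps, Hspa1a, Hspa4l and Hspb8 each have 1 point under a floor, and most other pairs of points lie close together.

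The Hsp110 proteins, which are nucleotide exchange factors for Hsp70, all had log2 ratios above 0 on their brightest probe set, and that held under each scaling. Hspa4 became -0.73 with the mean and -0.56 with the median over its probe sets, so the shared sign rested on the brightest ones. Hspa4l, a member known from testis and from osmotic and heat stress, gave 20.1 in Dunn and 89.0 in LM8, at least 4.23-fold higher, since Dunn was under its floor. Its dimmer probe sets, at 12.4 to 22.4 in Dunn and 18.2 to 43.0 in LM8, had log2 ratios of 1.03, 0.93, 0.65 and -0.24, so the size differed between probes. Each of its 5 probe sets had 1 array under its floor and counted as measured through the other, which largely fixed the sign. The last one counted through Dunn and the others through LM8. In the mean over its probe sets Hspa4l was no longer 2-fold apart. Hsph1, the heat-inducible Hsp105, gave 545 and 701, and its 2 probe sets had log2 ratios of 0.36 and 0.42.

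Hspa4, the constitutive Apg-2, was the member on which probe sets disagreed most. The brightest gave 1228 in Dunn and 1655 in LM8, a log2 ratio of 0.43. A second gave 223 and 76.5 and the third 134 and 27.3, with log2 ratios of -1.55 and -2.30, and the fourth, at 17.04 and 29.8 with Dunn under its floor, had 0.50. The SD between them was 1.41, so no direction can be given for this gene as a whole, and which transcripts each probe set reads was not tested.

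Among the BAG cochaperones, which also release nucleotide from Hsp70, the 3 genes went separate ways. Bag3, a heat-inducible cochaperone that works with Hspb8 in selective autophagy, gave 69.5 in Dunn and 134 in LM8, 1.93-fold higher. Bag1, which links Hsp70 to the proteasome, gave 714 and 877 with a log2 ratio of 0.30. Bag2, an inhibitor of the ubiquitin ligase Stub1, gave 286 and 191, with a log2 ratio of -0.59 that just passes 1.5-fold. Each was read by 1 probe set, so there is no second probe to set beside these values.

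Of 11 Hsp40 members 1 was at least 1.5-fold higher and 1 lower, where 15.3% and 20.3% of all genes were, and none was 2-fold apart, where 6.51% and 8.84% were. Dnaja1, a farnesylated partner of Hspa8, was 1.59-fold higher in LM8 at 914 and 1456. Its other probe sets, at 374 and 378 and at 207 and 218, had log2 ratios of 0.02 and 0.08, so the difference rested on 1 probe set of 3. Dnajb2, which carries ubiquitin-interacting motifs and helps clear misfolded proteins, was 1.55-fold lower at 87.9 and 56.7 on its single probe set. Dnajc2, the ribosome-associated partner of Hspa14, gave 412 and 599.98 with a log2 ratio of 0.54. A second probe set of Dnajc2 had 0.44 and the third, at 29.3 and 13.2 with LM8 under its floor, -0.63. Both partners of the ribosome-associated complex thus gave higher signals in LM8 on their bright probe sets.

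Dnajb1, the main heat-inducible partner of Hspa1a and Hspa1b, gave 308 in Dunn and 286 in LM8, with log2 ratios of -0.11 and -0.08 on its 2 probe sets. These values were nearly equal, while those of Hspa1b were 2.82-fold apart. Dnaja2, a constitutive partner of Hspa8, gave 2246 and 1949 with a log2 ratio of -0.21, and 109.5 and 54.2 on another probe set with -1.02. Dnajb4, also called Hlj1, gave 131 and 95.5 on its brightest probe set, a log2 ratio of -0.45, and its dimmer ones, at 31.8 and 41.7 and at 24.0 and 34.6, had 0.39 and 0.53, so its sign depends on the probe set. Dnajb6, a suppressor of protein aggregation, gave 553 and 656 with a log2 ratio of 0.25, beside 0.75 at 142.6 and 240.6 and -0.50 at 175 and 124 on dimmer probe sets. Dnajb5 gave 54.1 and 42.2 with a log2 ratio of -0.36, near the floors. Dnajc5, a chaperone of synaptic and secretory vesicles, gave 430.4 and 358 with a log2 ratio of -0.27, but its 5 probe sets ran from -0.35 to 0.32, the last at 97.8 and 122.5. Dnajc7, which binds both Hsp70 and Hsp90, gave 577 and 712 with a log2 ratio of 0.30. The class median was -0.11, close to that of all genes, and turned to 0.04 with scaling to array medians and to 0.14 with scaling to hybridisation controls.

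Hsp90 was represented by its inducible cytosolic form and its mitochondrial relative. Hsp90aa1, which encodes the inducible Hsp90-alpha, gave 2748 in Dunn and 4071 in LM8, 1.48-fold higher and just short of 1.5-fold. The next probe sets gave 2534 and 4126, and 1438 and 2358, with log2 ratios of 0.70 and 0.71. The fourth, at 16.04 and 21.6, had 0.04. The 3 bright probe sets of Hsp90aa1 were alike, and the 2 dimmer of them were past 1.5-fold.

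Its cochaperones stayed within 1.5-fold on their brightest probe sets. Stip1, also called Hop, which hands clients from Hsp70 to Hsp90, gave 749 and 969 with a log2 ratio of 0.37. Ahsa1, the activator of the Hsp90 ATPase, gave 765 and 880.4 with a log2 ratio of 0.20. Cdc37, which recruits kinases, gave 1123 and 1039.7 with a log2 ratio of -0.11. Its second probe set, at 58.8 and 29.4, had -0.999. The immunophilin Fkbp4 gave 494 and 565 with a log2 ratio of 0.19. Fkbp5, the glucocorticoid-inducible immunophilin that lowers receptor affinity, gave 161 and 144 with a log2 ratio of -0.16, and 112.7 and 54.2 on another probe set with -1.06. For Cdc37 and Fkbp5 the dimmer probe set thus showed a difference near 2-fold that the brighter one did not.

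The small heat shock proteins hold unfolded clients without using ATP, and 2 of the 3 gave signals near the floors. Cryab, alpha-B-crystallin, was 1.57-fold lower in LM8 at 185 and 118, with log2 ratios of -0.65 and -0.68 on its 2 measured probe sets. Hspb8, the partner of Bag3, gave 29.0 in Dunn and 13.0 in LM8, at least 1.53-fold lower because LM8 was under its floor. Hspb1, mouse Hsp25, gave 21.7 and 24.9, just above both floors, with a log2 ratio of 0.19. The class median of -0.61 is the value of Hspb8, which rests on the LM8 floor. It stayed below 0 under each of the 11 other processing settings, although 2 of its 3 genes lie near the floors. With a floor at the 75th percentile only 1 gene, Cryab, was left in the class.

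Inside the mitochondrion none of the 5 members was 1.5-fold apart on its brightest probe set. Of all genes 15.3% were at least 1.5-fold higher and 20.3% at least 1.5-fold lower. A dimmer probe set of Hspa9, at 167 and 293, had a log2 ratio of 0.81, and the second of Hspe1 just passed 1.5-fold. The chaperonin pair had log2 ratios of opposite sign. Hspd1, the Hsp60 ring, gave 5116 in Dunn and 6243 in LM8, a log2 ratio of 0.29 on its single measured probe set. That value is within the spread of 0.30 between probe sets. Hspe1, the Hsp10 lid, gave 4797.5 and 3275, 1.47-fold lower, and its second probe set gave 1342 and 894. Both Hspe1 probe sets were lower in LM8, with log2 ratios of -0.55 and -0.59, while that of Hspd1 was higher. Trap1, the mitochondrial Hsp90, gave 910.1 and 962 with a log2 ratio of 0.08, and 0.36 on a dimmer probe set. Dnaja3, the mitochondrial Hsp40 partner of Hspa9, gave 455 and 444 with a log2 ratio of -0.04. The compartment median was 0.08, as was that of the 38 measured members outside the mitochondrion.

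The region between Hspd1 and Hspe1 is shown because it holds a promoter window of each gene. They lie on opposite strands of chromosome 1. From 1 of the RefSeq starts of Hspd1 the Hspe1 start is 216 bases away, and the promoter windows share 285 of 300 bases. Another Hspd1 start lies 95 bases past the Hspe1 start (Hspe1 start minus Hspd1 start, -95), with a window that shares 4 bases and holds no pair. The sequence is the 250 bases before the Hspe1 start in GRCm38.p6, plus strand, at chr1:55087898-55088147, with heat shock element pairs in capitals.
Hspe1: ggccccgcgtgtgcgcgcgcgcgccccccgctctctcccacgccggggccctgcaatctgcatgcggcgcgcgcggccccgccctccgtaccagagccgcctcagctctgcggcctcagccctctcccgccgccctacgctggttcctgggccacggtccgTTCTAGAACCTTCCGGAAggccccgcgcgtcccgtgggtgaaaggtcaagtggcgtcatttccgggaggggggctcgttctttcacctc
The capitals hold 3 overlapping pairs, centred at -85, -80 and -75 from the Hspe1 start. Read on the other strand, the same letters lie at -140, -135 and -130 from the first of these Hspd1 starts. The 2 genes gave log2 ratios of opposite sign, that of Hspd1 within the spread between probe sets.

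TRiC subunits lay far above the floors in both lines and stayed within 2-fold on their brightest probe sets. Cct3, the gamma subunit, was 1.52-fold higher in LM8 at 1880 and 2862, and its 6 measured probe sets had log2 ratios from 0.13 to 1.56. The last, at 18.0 and 61.9, had Dunn under its floor and counted as measured through LM8 alone, which largely fixed its sign. Cct8, the theta subunit, gave 1695 and 2231 with a log2 ratio of 0.40 on its single measured probe set. Cct2, the beta subunit, gave 4162 and 3279 with a log2 ratio of -0.34, and its 3 probe sets were all below 0. Cct5, the epsilon subunit, gave 4568 and 3700.0 with a log2 ratio of -0.30. The subunits of this complex, which contains 1 copy of each per ring, thus did not differ between the lines in a single direction.

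The other TRiC subunits among the members differed by 0.20 or less in log2 ratio. Tcp1, the alpha subunit, gave 4197 in Dunn and 4441 in LM8, and Cct7, the eta subunit, 2425 and 2557, both with a log2 ratio of 0.08. Cct4, the delta subunit, gave 3563 and 3100.3 with a log2 ratio of -0.20, and its 7 probe sets ran from -1.02, at 40.8 and 20.2, to 0.75, at 64.9 and 109.2. The 4 brightest of these lay between -0.36 and -0.11. The class median was 0.08. Cct6a, the zeta subunit and not among the members, gave 3507 and 3364 with a log2 ratio of -0.06, and was named after its value was seen.

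Agreement between probe sets varied with the member. Of 29 members with at least 2 measured probe sets, 17 had all of them on 1 side of 0, and the median SD was 0.31, close to the 0.30 over all genes. The 17 include Cct3 and Hsp90aa1, where 1 probe set of each had Dunn under its floor, which largely fixed its sign. Across the 107 measured probe sets of the members 5 were at least 2-fold higher and 8 at least 2-fold lower. Over all 21460 measured probe sets with a single symbol the shares were 6.16% and 8.17%, so neither count is above its background. Hspa1b supplied 3 of the lower ones and Hspa4 2, with 1 each from Dnaja2, Fkbp5 and Cct4. Hspa13 and Hspa4l each supplied 2 of the higher ones and Cct3 the other. Those of Hspa4l and Cct3 had Dunn under its floor and counted as measured through LM8 alone.

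**Figure D3:**
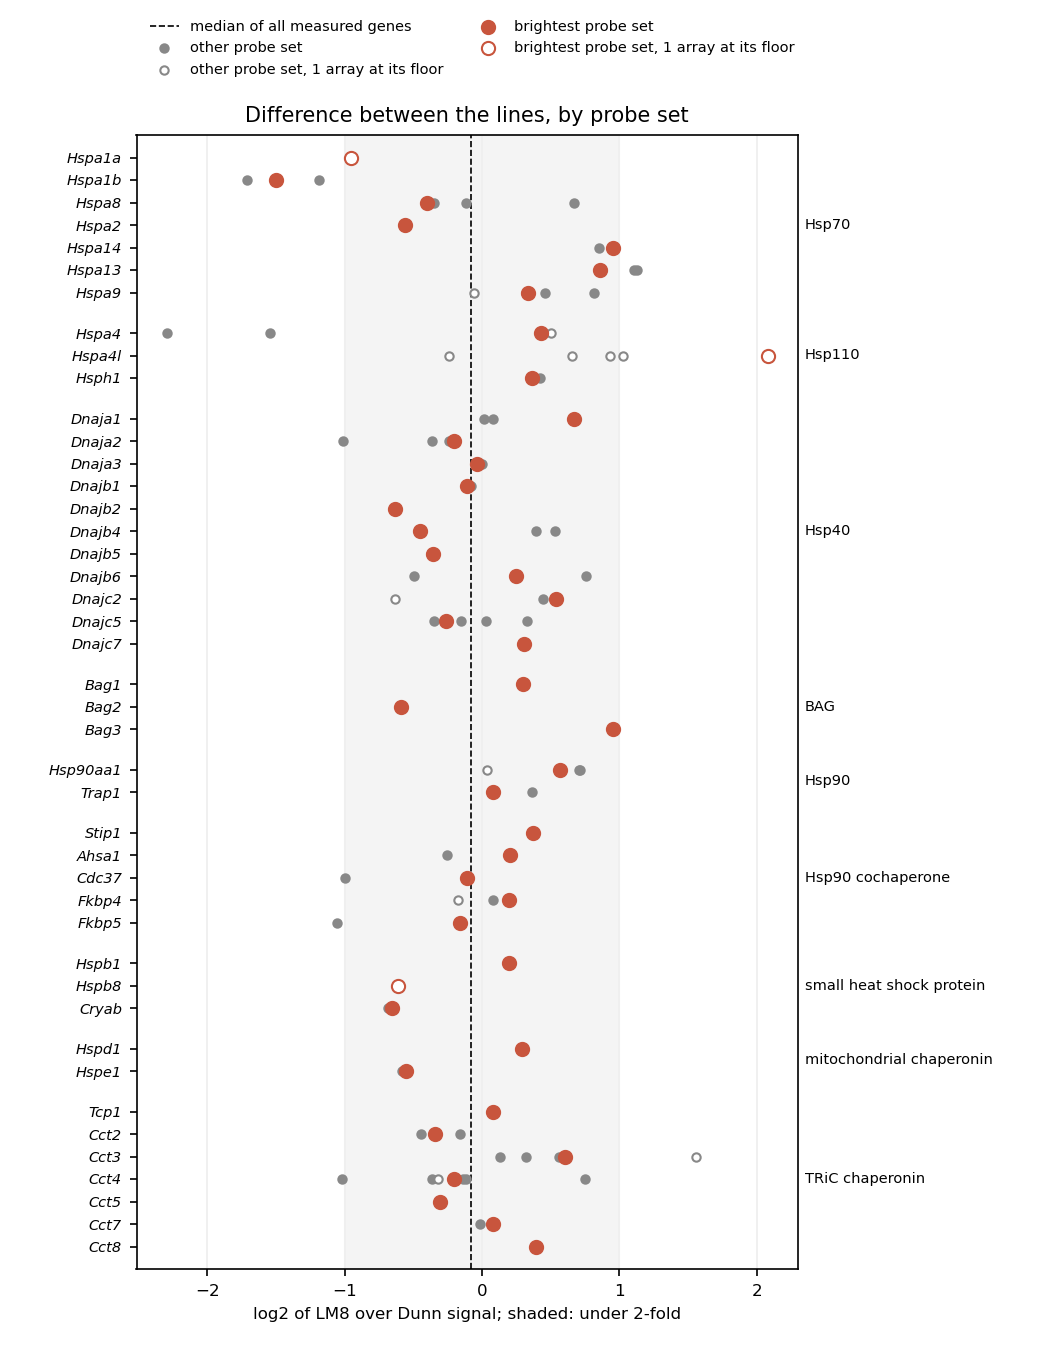
Each point is 1 measured probe set of a chaperone gene, placed by its log2 ratio of LM8 over Dunn, with the brightest probe set of the gene marked apart from the others and a dashed line at the all-gene median. Open symbols have 1 array at its floor, and the shaded band holds differences under 2-fold. All points of Hspa1b lie at -1.19 or below, those of Hspa13 at 0.86 or above, and those of Hspa4 spread from -2.30 to 0.50.

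Promoters were searched for the heat shock element pair in windows from 250 bases before to 50 after each RefSeq start. The pairs were GAANNTTC and TTCNNGAA, each its own reverse complement, so a match on 1 strand is a match on both, and pairs may overlap each other. Of 47 members 37 matched an entry, with 51 windows. A pair was present in 17 of these windows, or 33.3%, and in 15.1% of all 32851 windows. By gene, 15 of 37 members held one, and 4587 of all 27025 genes did. These counts are not of separate stretches. The Hspa1a and Hspa1b promoters are nearly identical, Hspd1 and Hspe1 share the same pairs, and the windows of Dnajb6 overlap each other, as do those of Hsph1. A match is a description of letters and not a binding site.

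Runs of 3 alternating units were rarer, in 198 of all windows or 0.603%. Among the members Dnajb6, Hspd1, Hspe1 and Hsph1 had one. Hsph1 is shown because it is a heat-inducible member with such a run. Its sequence is the 250 bases before a RefSeq start in GRCm38.p6, minus strand, at chr5:149636316-149636565, with the pair in capitals.
Hsph1: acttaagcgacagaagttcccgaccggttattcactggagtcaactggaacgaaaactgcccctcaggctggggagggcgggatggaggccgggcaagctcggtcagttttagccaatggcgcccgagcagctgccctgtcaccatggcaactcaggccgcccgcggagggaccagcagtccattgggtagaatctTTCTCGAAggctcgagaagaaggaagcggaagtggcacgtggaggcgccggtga
This pair is centred at -50, and 2 overlapping pairs that form the run lie past the start, at 19 and 24. The members with such a run had log2 ratios of 0.25 in Dnajb6, 0.29 in Hspd1, -0.55 in Hspe1 and 0.36 in Hsph1. On these brightest probe sets none was 1.5-fold apart, where 15.3% of all genes were higher and 20.3% lower by that much. Of the members at least 1.5-fold higher in LM8, Hspa4l, Hspa14 and Cct3 held no pair in their windows. Dnaja1 held 1, and Bag3 1 past its start, at 46. Of those at least 1.5-fold lower, Hspa1a, Hspa1b and Hspb8 held 1 each, and Dnajb2 and Bag2 none. Hspa13 and Cryab matched no entry. The members that hold a pair thus include genes on both sides of 0.

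**Figure D4:**
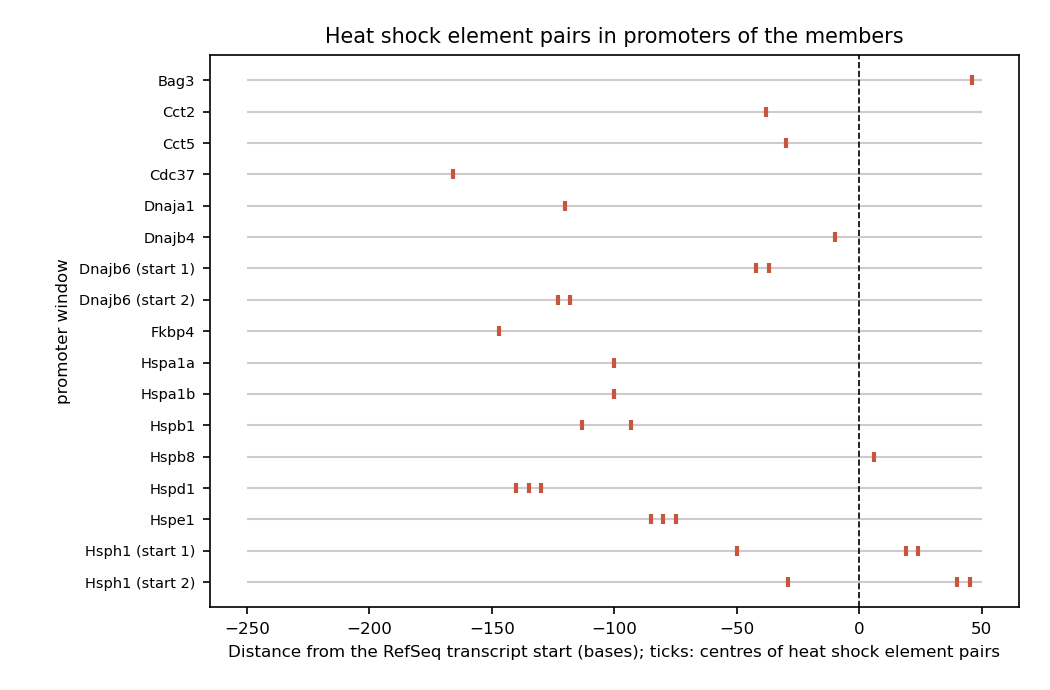
Each row is 1 promoter window of a member that holds a heat shock element pair, from 250 bases before to 50 after the RefSeq start, and ticks mark the centres of the pairs. Pairs of Hspa1a and Hspa1b stand at the same distance of -100, those of Hspe1 and Hspd1 form clusters of 3, and those of Bag3 and Hspb8 lie past the start.

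The 8 members known as heat-inducible, namely Hspa1a, Hspa1b, Hsph1, Dnajb1, Hspb1, Cryab, Bag3 and Hsp90aa1, lay on both sides of 0. Of these, Bag3 alone was at least 1.5-fold higher in LM8, while Hspa1a, Hspa1b and Cryab were at least 1.5-fold lower, beside 15.3% and 20.3% of all genes. The direction of Hspa1a was fixed, since it counted as measured through Dunn alone. The other 4 lay between, with Hsph1 at 0.36, Dnajb1 at -0.11, Hspb1 at 0.19 and Hsp90aa1 at 0.57. The median log2 ratio was 0.04.

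Among 52 further chaperones and cochaperones of the cytosol 41 were measured, and their median log2 ratio was -0.06. At least 2-fold higher in LM8 were 3 of them, against the 6.51% of all genes, and none was 2-fold lower, where 8.84% of all genes were. Hspb2, a small heat shock protein of muscle, gave 23.4 in Dunn and 80.1 in LM8, a log2 ratio of 1.78. In the RefSeq annotation Hspb2 lies beside Cryab, which was 1.57-fold lower. Dnajc9, a J-domain protein that binds histones, gave 331 and 888 with a log2 ratio of 1.43. Sugt1, an Hsp90 cochaperone, gave 354 and 758 with a log2 ratio of 1.10, but -0.14 on another probe set. The lowest were St13, the Hsp70-interacting protein Hip, at 1952 and 1132 with a log2 ratio of -0.79, Dnajc17 at -0.72 and the prefoldin subunit Pfdn5 at -0.65. Probe sets of St13 ran from -1.23 to 0.83 and those of Dnajc17 from -0.72 to 0.77, so neither has a settled direction.

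Among 16 further chaperones and proteases of the mitochondrion 15 were measured, with a median log2 ratio of 0.01. None was 2-fold higher and 2 were 2-fold lower, beside 6.51% and 8.84% of all genes. Hscb, the J-domain protein that serves iron-sulfur cluster assembly with Hspa9, gave 151 in Dunn and 62.7 in LM8, a log2 ratio of -1.27. Clpx, the unfoldase of the ClpXP protease, gave 221 and 93.3 with -1.25, and 0.26 on its other probe set. The next lowest was Timm44, which tethers Hspa9 to the import channel, at -0.15, with probe sets up to 0.54. The highest were the inner membrane proteases Yme1l1 at 0.73 and Afg3l2 at 0.42, and the disaggregase Clpb at 0.34, and other probe sets of Yme1l1 reached -1.15 and of Afg3l2 -0.28. Hspa9, the partner of Hscb, was within 1.5-fold on its brightest probe set.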

How the data were processed

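The deposited values were linear MAS5 intensities per probe set, computed by the authors, per the submitters' processing notes. The MAS5 version was not given in the sources used here. Both arrays had a 2% trimmed mean of 100 over all probe sets, per the deposited values. The 64 control probe sets were left out, and the other 45037 were brought to a common 2% trimmed mean, which hardly changed them. The floor was each array's median. Symbols came from the platform annotation, where 932 probe sets with several symbols and 9160 unnamed ones stayed unused, and gene IDs of 99.4% of single-symbol probe sets matched RefSeq. Promoter sequences came from the RefSeq table of GRCm38.p6.

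Genes named are all measured members, their other probe sets that differ by over 0.5 in log2 ratio, and, of further lists, those 2-fold apart plus the 3 largest each way. Members and lists were chosen with earlier results of these data known. Alternatives were 4 scalings, 4 treatments of the floor, 2 gene summaries and 1 selection of probe sets. The steps were tested on simulated data in which only bright genes were changed, by more than 2-fold. Changes near 1.5-fold or 2-fold, and changes in genes near a floor, were not covered. Python 3.11.15, numpy 2.4.6, pandas 2.3.3, statsmodels 0.14.6 and matplotlib 3.10.9 were used.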

Additional observations from a re-analysis of the deposited data

How the results depend on the processing

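Other processing left the median log2 ratio of all members above 0 in all 11 alternatives, between 0.03 and 0.32, and 0.11 to 0.21 above that of all genes. Scaling moved all genes together, with an all-gene median of 0.07 on array medians and 0.16 on hybridisation controls. The count of members at least 2-fold higher went from 1 to 4 with either of these scalings, where Hspa14, Hspa13 and Bag3 joined Hspa4l and where 8.66% and 10.5% of all genes passed, 2 with quantile normalization, 2 without probe sets of the _s_at, _x_at and _a_at types, and 0 with a floor at the 75th percentile or a mean or median over probe sets, where 5.13% to 6.97% of all genes passed. Members at least 2-fold lower became 4 with no floor, 2 with a floor from olfactory receptors and 2 with a pseudocount, where 18.4%, 9.81% and 5.18% of all genes passed. At 1.5-fold, 12 were higher on hybridisation controls, and the lower count became 2 on array medians, 2 on hybridisation controls and 3 with the 75th percentile floor, where 15.0%, 12.7% and 15.2% of all genes passed. On hybridisation controls 24.9% of all genes were also at least 1.5-fold higher, and the log2 ratios of Dnaja2, Dnaja3, Dnajb1, Cdc37, Fkbp5 and Cct4 turned positive. The Hsp70 median of -0.40 became -0.0066 with quantile normalization, -0.0498 with means over probe sets, and 0.33 with the 75th percentile floor or without those probe set types. The class is split, and with that floor 5 of its genes were measured. Of 466 recomputed gene values 439 moved by less than the spread between probe sets and 27 by more, and no member past 1.5-fold changed sign. Some members within 1.5-fold did turn with the choice of probe sets. Among these, Hspa4 became -0.73 with means over probe sets and Dnajb4 0.39 with medians. Without the _s_at, _x_at and _a_at types Hspa8 became 0.67 and Dnajc2 -0.63. For the other moves the cause was not tested. No paired analysis was possible because each line has 1 array, and for the same reason no array could be left out. Low signals limit Hspa1a, Hspa4l, Hspb1 and Hspb8 the most.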

Other observations

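Genes beside Hspa1a and Hspa1b on chromosome 17 were read after the values of the pair had been seen, so they are a description only. On the side of Hspa1b, the next measured gene, the non-coding 1110038B12Rik, gave 2572 in Dunn and 950.1 in LM8, a log2 ratio of -1.44. Neu1, a lysosomal sialidase, gave 186 and 39.8 with a log2 ratio of -2.23. Ehmt2, a histone methyltransferase, and Zbtb12 had -0.70 and -0.71. The complement gene C2 gave 573 and 4.58, at least 30.2-fold lower, and Cfb, another complement gene, 32.6 and 2.64, at least 1.72-fold lower. Nelfe, Dxo and Stk19, further out on that side, had -0.23, -0.31 and -0.17, and Skiv2l had 0.10. The genes on that side thus lay on both sides of 0, most of them below. Of the 20 neighbours on both sides of the pair, 12 lay below the all-gene median.

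On the side of Hspa1a the 10 neighbours lay on both sides of 0. Lsm2, D17H6S56E-5 and Vars had log2 ratios of 0.55, 0.49 and 0.25, and Sapcd1, at 2.34 in Dunn and 75.5 in LM8, was at least 3.59-fold higher. Clic1 and Ly6g6c had 0.37 and 0.03. Msh5, with LM8 under its floor, had -0.63, and Ddah2, Ly6g6e and Abhd16a had -0.46, -0.19 and -0.0072. Over the 20 neighbours the median was -0.21, and over the 585 measured genes of the chromosome -0.24. The first median pools both sides, which differed. Of the 20 neighbours 3 were at least 2-fold lower and 1 at least 2-fold higher, beside 8.84% and 6.51% of all genes. The lower ones, 1110038B12Rik, Neu1 and C2, were all on the side of Hspa1b, and the higher one, Sapcd1, on that of Hspa1a. Whether the region differs as a whole was not tested.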
